A study of Mus musculus with 4 samples.

Results

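The mitochondrial ribosomal protein genes are the nuclear genes, named Mrps or Mrpl with a number, that encode the proteins of the ribosome inside mitochondria. They were taken here by name, as genes whose symbol is Mrps (small subunit) or Mrpl (large subunit) followed by a number and at most 1 letter. That gave 78 of the 55203 genes in the files, 29 with a small-subunit name and 49 with a large-subunit name, on 17 chromosomes. Their 343 transcripts were part of 141738. All 78 were listed at 1 FPKM or more in every library (FPKM, fragments per kilobase of transcript and per unit of mapped fragments, a level per length), and all 78 passed the filter on low values used for testing.

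RNA was sequenced from intestine of wild-type male C57BL/6NTac mice aged 8 to 12 weeks and kept specific-pathogen-free. The series was made as a bulk measurement to set beside imaging of transcripts in gut sections. Of the 4 libraries, 2 came from tissue labelled as processed with RVC (ribonucleoside vanadyl complex, which blocks ribonucleases) at 4 mM, and 2 from tissue labelled fresh frozen. The same protocol text, with an RVC rinse, accompanies all 4 libraries. Whether the fresh-frozen tissue also met RVC is therefore not settled, and the groups are named here by their labels. No library carried a mutation or a drug, and nothing in the labels says that libraries of 1 group came from separate animals, so p-values measure only the spread between these samples. Each library had a batch number of its own, which means that the effects of batch and group cannot be told apart. The sample titles name the ileum while the protocol names the distal colon. The 12 colon markers summed to between 9535 and 14889 FPKM and the 12 ileum markers to between 25.7 and 37.8 FPKM. Of the latter, Apob had 30.1 and 16.7 FPKM in RVC 1 and 2 and 26.6 and 21.2 FPKM in fresh-frozen 1 and 2. Fabp6, Slc10a2 and Lyz1 had means of 3.37, 2.73 and 2.37 FPKM. Defa24, Reg3g and Sis stayed below 1 FPKM, and Apoa4, Cyp3a11, Defa17, Defa22 and Fgf15 were listed at 0 in every library.

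The mitochondrial ribosome descends from that of the bacterial ancestor of the organelle and makes only the few proteins that mitochondrial DNA encodes, all of them membrane subunits of the respiratory chain and the ATP synthase. Its RNAs come from mitochondrial DNA, while every protein is made in the cytosol from a nuclear gene and imported. Some proteins have counterparts in bacteria (names such as uS9m or bL12m), and others exist only in mitochondria (mS23, mL45). The small subunit binds the mRNA and decodes it, and the large subunit joins the amino acids. Intestinal epithelium is renewed continuously, and its absorptive cells are rich in mitochondria.

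The promoters of these genes are known for binding sites of a small set of activators: ETS-family factors such as GABP, NRF1 (nuclear respiratory factor) and YY1. A promoter entry of 300 bases, from 250 before to 50 after the gene start, was found in RefSeq (mouse build GRCm38.p6) for 69 of the 78 genes. The ETS letters CCGGAAG stood on either strand in 26 of the 69 (37.7%), against 9.93% of 27025 genes and 8.86% of 32851 promoters of the same length. The NRF1 letters, GCGCA and GCGC with any base N between them, stood in 13 (18.8%), against 5.19% of genes and 4.6% of promoters. The YY1 letters AAGATGGCG stood in 8 (11.6%), against 1.64% of genes and 1.40% of promoters. At least 1 of these motifs was present in 41 of the 69 genes (59.4%), against 15.1% of all genes, and no site of 1 motif overlapped a site of another.

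Sites of the ETS motif lay close to the gene start. Of 31 sites, 28 began within 100 bases of it, and the median site began at position -17, counting upstream bases as negative. In the windows below, taken from the 4 most abundant genes that hold the motif, capitals mark the ETS letters, read as CCGGAAG or, on the other strand, as CTTCCGG. Each window is written 5′ to 3′ on the strand of its gene.
Mrps21 (chr3:95871478-95871507, minus strand): cgtagcttccgCTTCCGGtccgcagagacc
Mrpl33 (chr5:31613937-31613966, plus strand): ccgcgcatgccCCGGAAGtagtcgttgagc
Mrpl52 (chr14:54426851-54426880, plus strand): caagatgtcggCTTCCGGttttcccggcag
Mrpl51 (chr6:125192099-125192128, plus strand): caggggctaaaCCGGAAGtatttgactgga

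The NRF1 motif is nearly its own reverse complement, a GC-rich palindrome. Its 16 sites had a median start of -43.5. Capitals mark it in the 4 most abundant genes that hold it, which include Mrpl12, whose protein bL12m forms the flexible stalk that recruits translation factors.
Mrps21 (chr3:95871586-95871615, minus strand): ggaaagtccaGCGCCTGCGCtcagcaccga
Mrpl30 (chr1:37890384-37890413, plus strand): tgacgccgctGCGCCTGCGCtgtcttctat
Mrpl14 (chr17:45686343-45686372, plus strand): aacccctggcGCGCAGGCGCagcgtgcggg
Mrpl12 (chr11:120484546-120484575, plus strand): tattgtctccGCGCCTGCGCgtcgcaccgc

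The YY1 motif differed in place: the median start of its 8 sites was 18.5 bases after the gene start. The letters ATG inside it can serve as a start codon. Capitals mark it, or its reverse complement CGCCATCTT, in the 4 most abundant genes that hold it.
Mrpl42 (chr10:95501903-95501932, minus strand): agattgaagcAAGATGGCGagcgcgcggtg
Mrps24 (chr11:5707652-5707681, minus strand): cgggtcgcgccggcccAAGATGGCGtggtc
Mrpl36 (chr13:73330968-73330997, plus strand): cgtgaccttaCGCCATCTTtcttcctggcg
Mrps18a (chr17:46111005-46111034, plus strand): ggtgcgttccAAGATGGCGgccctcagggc

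The other motifs searched had shares nearer to those of all genes, in ratio, than these 3. SP1 letters GGGCGG were found in 49.3% of the genes against 38.2% of all genes, CCAAT in 39.1% against 41.1%, the E-box CACGTG in 7.25% against 8.09%, and TATAAA in 7.25% against 15.7%. The promoters had a median GC content of 58.7%, against 52.7% over all promoters. Genes with an ETS match had a median level of 20.2 FPKM and those without 12.6 FPKM. For NRF1 the medians were 18.5 and 14.8 FPKM, and for YY1 the order was the opposite, at 10.6 and 15.8 FPKM. These are descriptions over genes with no test. The 250 bases upstream of the most and the least abundant gene show the contrast in composition. Mrps21 has 56.8% GC and 1 NRF1 site in capitals, and Mrps30 has 45.2% GC and none of the 3 motifs in this stretch.
Mrps21 (chr3:95871515-95871764, minus strand): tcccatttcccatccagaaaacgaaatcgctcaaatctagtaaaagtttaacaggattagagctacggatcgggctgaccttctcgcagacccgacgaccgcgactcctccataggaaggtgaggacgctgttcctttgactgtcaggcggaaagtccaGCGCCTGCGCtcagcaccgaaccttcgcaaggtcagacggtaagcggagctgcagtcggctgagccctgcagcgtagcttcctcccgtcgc
Mrps30 (chr13:118387253-118387502, minus strand): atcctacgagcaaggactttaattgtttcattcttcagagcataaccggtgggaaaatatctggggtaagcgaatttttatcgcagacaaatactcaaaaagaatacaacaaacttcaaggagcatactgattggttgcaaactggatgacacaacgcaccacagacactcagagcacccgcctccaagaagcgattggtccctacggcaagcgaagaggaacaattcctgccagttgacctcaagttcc

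**Figure D1:**
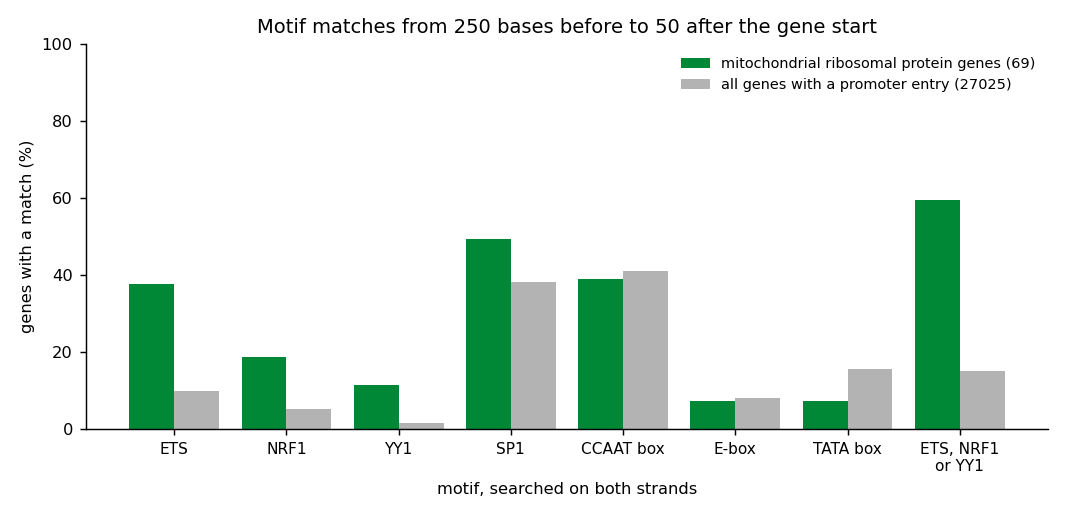
Bars give the percentage of genes with at least 1 match of each motif, on either strand, in the 300-base promoter window, for the 69 mitochondrial ribosomal protein genes with an entry (green) and for all 27025 genes (grey). The ETS, NRF1 and YY1 bars stand at 37.7%, 18.8% and 11.6% in green and at 9.93%, 5.19% and 1.64% in grey.

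Transcript levels of the 78 genes spanned a 38.8-fold range. The median was 14.9 ± 0.641 FPKM (SD over 4 libraries, n = 4), far below that of 37 complex I subunit genes (101 ± 6.20) and of 82 cytosolic ribosomal protein genes (388 ± 44.5). In mean level, 74 genes reached 5 FPKM, 56 reached 10, 46 lay between 10 and 40, and 7 exceeded 50. The 5 most abundant genes held 22.7% of the summed FPKM. The fold between the 90th and the 10th percentile gene was 6.78, against 4.00 in each of the cytosolic ribosomal and the complex I group, although the proteins of 1 mitochondrial ribosome are known to be present mostly in single copies.

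Mrps21, which encodes the small-subunit protein bS21m, was the most abundant. Its level was 112 and 121 FPKM in RVC 1 and 2 and 110 and 95.2 FPKM in fresh-frozen 1 and 2. Every value was above every value of any other of the 78 genes. Mrps6 (bS6m) followed at 59.5, 52.1, 61.7 and 49.4 FPKM in the same order of libraries. Mrps18c (bS18m, the partner of S6 in the platform of bacterial small subunits) stood at 37.5, 45.1, 49.5 and 44.4 FPKM. These genes encode short proteins with bacterial counterparts. Mrps24 (uS3m, at the entry of the mRNA channel) had 34.8, 34.4, 35.3 and 32.4 FPKM, and Mrps23 (mS23, found in mitochondria only) had 34.3, 31.4, 32.8 and 32.6 FPKM. The last 2 genes did not separate from each other beyond their spread.

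Mrps30 was the least abundant gene of all. It was listed at 2.37 and 2.39 FPKM in the RVC libraries and 3.63 and 2.90 FPKM in the fresh-frozen libraries. Despite its name its protein is mL65, a component of the large subunit. Mrps2 (uS2m) had 4.56, 4.25, 4.75 and 4.62 FPKM, and Mrps27 (mS27, a protein with pentatricopeptide repeats, an RNA-binding fold) had 4.32, 4.62, 5.78 and 4.49 FPKM. These neighbours in the order overlapped. Mrps11 (uS11m) had 5.58, 6.21, 6.73 and 6.54 FPKM, and Mrps7 (uS7m, whose bacterial counterpart nucleates the head of the small subunit) had 5.42, 5.73, 8.23 and 6.24 FPKM.

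In the large subunit, Mrpl33 (bL33m) led at 71.6, 80.7, 81.0 and 75.4 FPKM. Mrpl52 (mL52) had 70.2, 65.5, 74.3 and 63.0 FPKM, and its range overlapped that of Mrpl33. Mrpl30 (uL30m) had 53.3, 57.7, 71.7 and 52.8 FPKM. Its mean hardly differed from that of Mrpl42 (mL42), which had 47.1, 57.6, 69.7 and 58.5 FPKM. Mrpl51 (mL51) came next with 54.2, 47.4, 54.3 and 45.4 FPKM. Both name classes are represented here, since Mrpl33 and Mrpl30 have bacterial counterparts and the other 3 genes do not.

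At the low end, Mrpl19 (bL19m) had 3.51, 3.57, 5.01 and 3.13 FPKM. Mrpl1 (uL1m, of the mobile L1 stalk beside the exit site for tRNA) had 4.17, 4.65, 5.96 and 6.02 FPKM. Mrpl38 (mL38, in the central protuberance) had 5.56, 5.42, 5.07 and 4.97 FPKM. The groups overlapped for Mrpl19 but not for Mrpl1, lower with RVC, or Mrpl38, higher with RVC. Mrpl45 (mL45, which tethers the ribosome to the inner membrane at the tunnel exit) had 5.40, 4.79, 6.46 and 5.24 FPKM, and Mrpl35 (bL35m) had 5.54, 6.94, 7.61 and 6.23 FPKM.

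**Figure D2:**
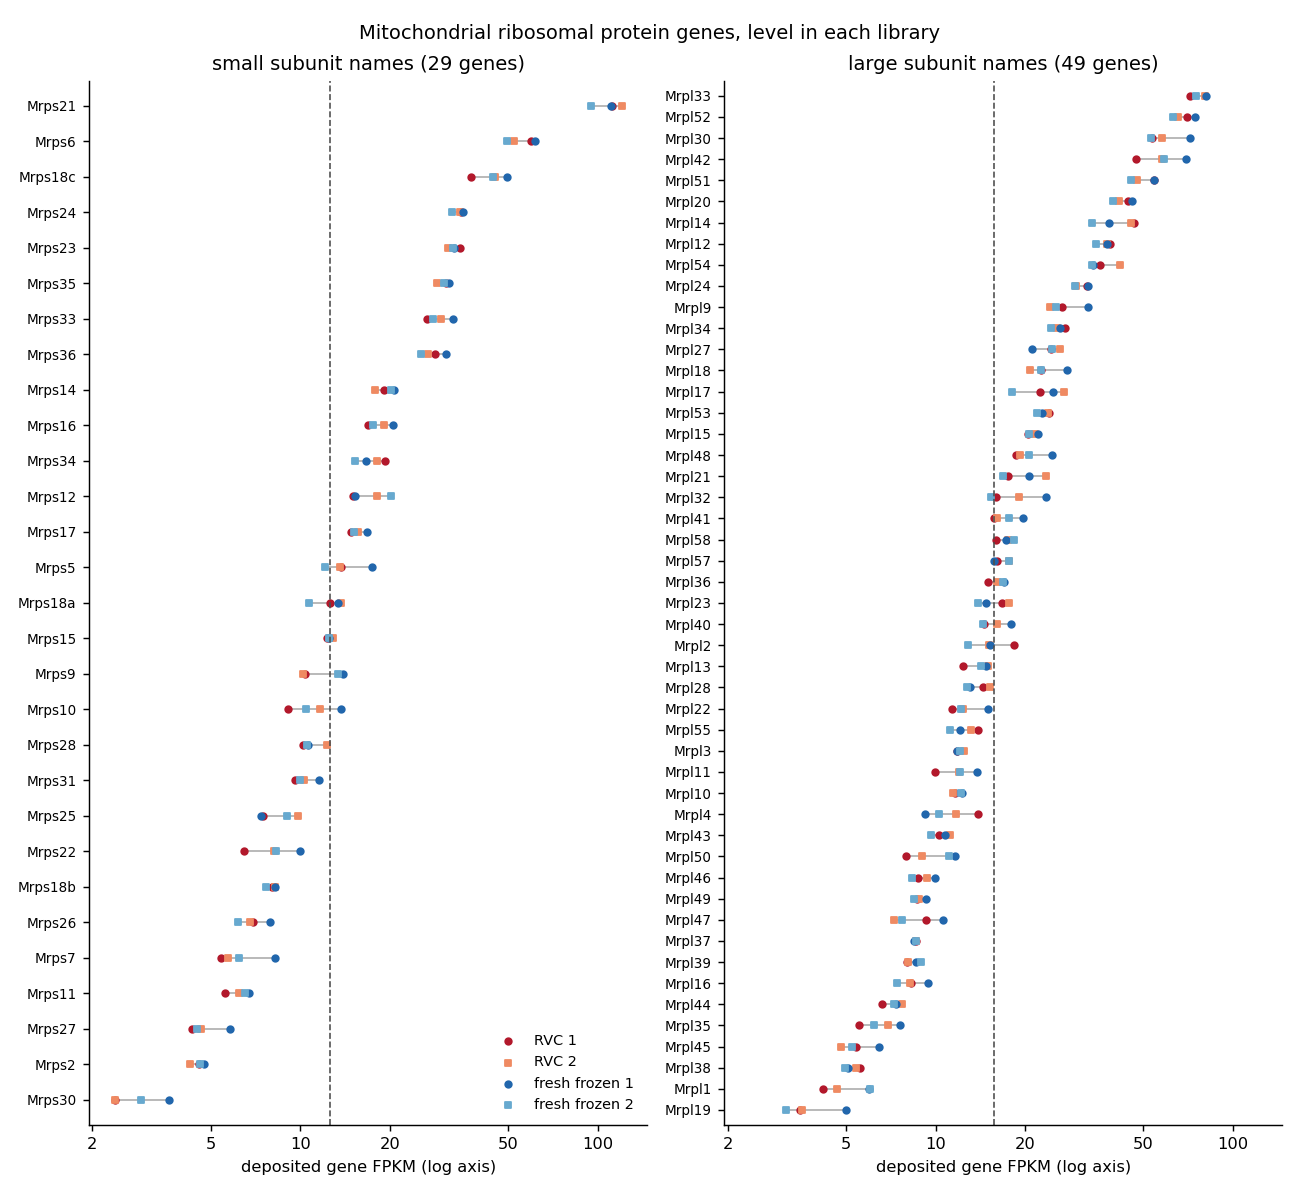
Each row is 1 gene and each point its deposited FPKM (log axis) in 1 of the 4 libraries, with small-subunit names on the left, large-subunit names on the right, grey lines spanning lowest to highest, and dashed lines at the median gene mean. Levels run from 2.37 FPKM (Mrps30) to 121 FPKM (Mrps21), and the spread within a gene is small beside the spread between genes.

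By the median, genes of the large subunit stood slightly higher than those of the small. The median was 15.5 ± 0.739 FPKM for Mrpl names and 13.2 ± 0.724 FPKM for Mrps names (SD, n = 4 libraries), and 26 of 49 large and 13 of 29 small genes were above the median of all 78. The large-minus-small difference of medians, as log2(FPKM + 1), was 0.29 and 0.22 in RVC 1 and 2 and 0.16 and 0.19 in fresh-frozen 1 and 2. It was positive in 4 of 4 libraries, and the RVC values were the higher ones. The groups differed by 0.08, with an exact two-sided permutation p of 0.33, the smallest that 2 against 2 libraries allow. The lower quartile was also higher for Mrpl names in each library, but the upper quartile had the opposite order. In RVC 1 and 2 and fresh-frozen 1 and 2 it was 26.6, 26.9, 30.9 and 25.5 FPKM for Mrps names. For Mrpl names it was 24.5, 25.6, 26.2 and 24.4 FPKM. The summed level was 1049 ± 56.0 FPKM for Mrpl and 592 ± 29.7 FPKM for Mrps names, as the larger number of genes requires.

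The size of that difference rested on how genes were assigned and counted. With Mrps30 and Mrps18a moved to the large subunit, where their proteins sit, and Mrps36 left out, the mean over libraries fell from 0.22 to 0.16. With only the most abundant transcript of each gene it was 0.09, and the RVC-minus-fresh-frozen difference changed sign to -0.03. Mrps36, now known as KGD4, belongs to the 2-oxoglutarate dehydrogenase complex of the citric acid cycle and not to the ribosome, and was listed at 28.4, 26.9, 30.9 and 25.5 FPKM.

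Genes whose protein is named for a bacterial counterpart had the higher median in both subunits. These 46 genes had a median of 15.4 ± 0.669 FPKM and the 31 genes whose protein has a mitochondrial name (mS or mL) 10.9 ± 0.579 FPKM (SD, n = 4 libraries). Mrps18a and Mrps18b are among the latter by protein name, although they derive from the bacterial S18 gene. In the small subunit, by assembled place, the medians were 14.8 ± 0.854 FPKM (16 genes) and 9.80 ± 0.818 FPKM (10 genes). In the large subunit they were 16.0 ± 0.893 FPKM (30 genes) and 12.7 ± 1.17 FPKM (21 genes). Genes are not replicates, so these are descriptions. The most abundant transcripts of the 2 classes also differed in length, with medians of 807.5 and 1134 nt.

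Genes with short transcripts had the higher levels. Across the 78 genes, Spearman's rho between mean FPKM and the length of the most abundant transcript was -0.70, and over the 68 genes whose most abundant transcript has a coding sequence, rho with coding length was -0.64. Length is the divisor of FPKM, so the 2 axes share it. Mrps21 and Mrpl33 had most abundant transcripts of 488 and 478 nt, and those of Mrps30 and Mrpl19 had 3319 and 5000 nt. Mrps25 (mS25) departed from the trend, with a transcript of 6073 nt at 8.43 ± 1.20 FPKM.

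**Figure D3:**
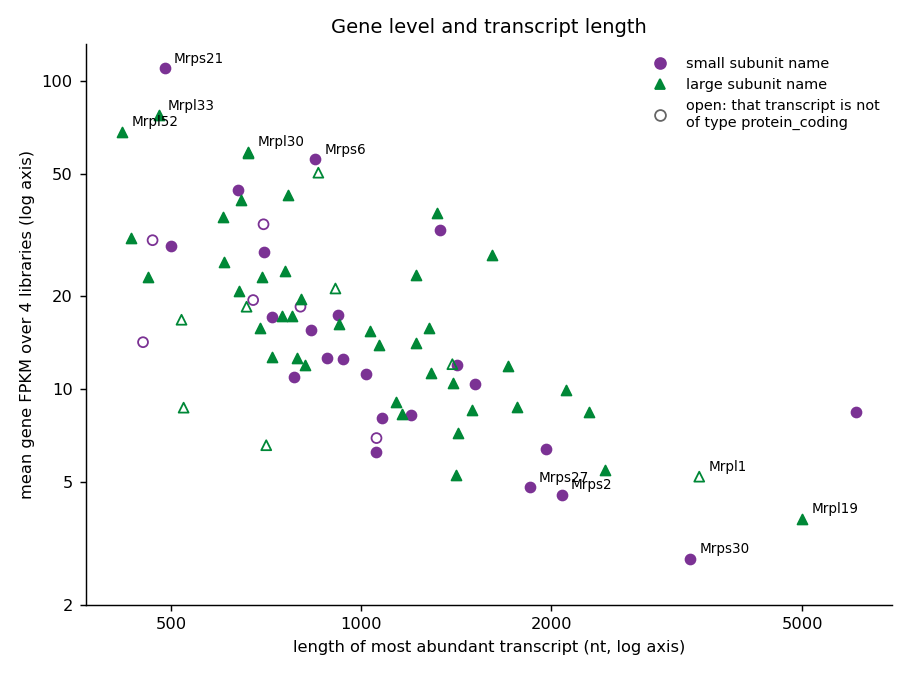
Each point is 1 gene, placed by the length of its most abundant transcript (nt, log axis) and its mean FPKM over 4 libraries (log axis), with circles for small-subunit and triangles for large-subunit names. Open symbols are the 14 genes whose most abundant transcript is not annotated as protein-coding. Levels fall from 110 FPKM at 488 nt (Mrps21) to 3.81 FPKM at 5000 nt (Mrpl19).

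The Mrps18 genes are 3 diverged copies of 1 bacterial gene. Mrps18c keeps the S18 position (bS18m), Mrps18b encodes mS40 elsewhere in the small subunit, and Mrps18a encodes mL66 in the large subunit. Mrps18a had 12.6 and 13.7 FPKM with RVC and 13.4 and 10.7 FPKM fresh frozen. Mrps18b had 8.06, 8.22, 8.23 and 7.68 FPKM. With Mrps18c at 44.1 ± 4.99 FPKM, Mrps18a at 12.6 ± 1.34 and Mrps18b at 8.05 ± 0.259 (SD, n = 4), the order c, a, b held in every library without overlap. None of the 3 copies passed the test between the groups, with RVC-minus-fresh-frozen log2 differences of -0.18, 0.13 and 0.03 for c, a and b.

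No mitochondrial ribosomal protein gene passed the test between the groups. By limma with Benjamini-Hochberg adjustment, 0 of 78 had an adjusted p under 0.05, where 5 of 13775 genes tested (0.0363%) did. At an unadjusted p under 0.05 there were 5, 2 higher and 3 lower with RVC, which is 6.41% of the genes where 18.4% of all genes passed (9.38% higher and 8.99% lower). The median log2 difference was -0.03, against 0.01 over all genes, with 31 genes higher and 47 lower. Below 0 lay 49.0% of all genes. Under upper-quartile scaling the split was 20 higher and 58 lower, with 54.6% of all genes lower. Without fresh-frozen 1 it was 40 higher and 38 lower, with a median of 0.01, so the lean towards lower values rests on that library.

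The groups stood apart in a minority of these genes. In 29 of the 78 genes (37.2%) both RVC values lay on 1 side of both fresh-frozen values, 12 higher and 17 lower, against 53.2% of all genes tested (26.5% higher and 26.6% lower). By name, 10 small-subunit genes were higher and 19 lower with a median log2 difference of -0.07, and 21 large-subunit genes were higher and 28 lower with a median of -0.01.

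Mrpl14, Mrpl4 and Mrpl23 were the genes without overlap that had the smallest p among those higher with RVC. Mrpl14 encodes uL14m, at the interface of the subunits, where the assembly factor MALSU1 binds. It stood at 46.4 and 45.5 FPKM with RVC and 38.3 and 33.6 FPKM fresh frozen, and the log2 difference was 0.35 ± 0.11 (SE; limma adjusted p 0.181). Mrpl4 (uL4m, which lines the exit tunnel) had 13.9 and 11.7 against 9.23 and 10.3 FPKM, and its log2 difference was 0.36 ± 0.13 (SE; limma adjusted p 0.230). Mrpl23 (uL23m, at the tunnel exit) had 16.7 and 17.7 against 14.8 and 13.9 FPKM, which gave 0.25 ± 0.11 (SE; limma adjusted p 0.274). None of the 3 passed.

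Mrps9, Mrpl50 and Mrpl1 were the corresponding genes lower with RVC. Mrps9 encodes uS9m, whose bacterial counterpart reaches the tRNA in the P site. It stood at 10.4 and 10.2 FPKM with RVC and 14.0 and 13.4 FPKM fresh frozen, and the log2 difference was -0.38 ± 0.11 (SE). Its limma adjusted p, 0.168, was the smallest of the 78. Mrpl50 (mL50) had 7.95 and 9.04 against 11.6 and 11.1 FPKM, which gave -0.38 ± 0.12 (SE; limma adjusted p 0.190). For Mrpl1, whose values are given above, the log2 difference came to -0.37 ± 0.13 (SE; limma adjusted p 0.208). Over the 14 alternative settings the adjusted p of these 6 genes ran from 0.123 (Mrps9) to 0.708 (Mrpl4), and none passed in any.

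**Figure D4:**
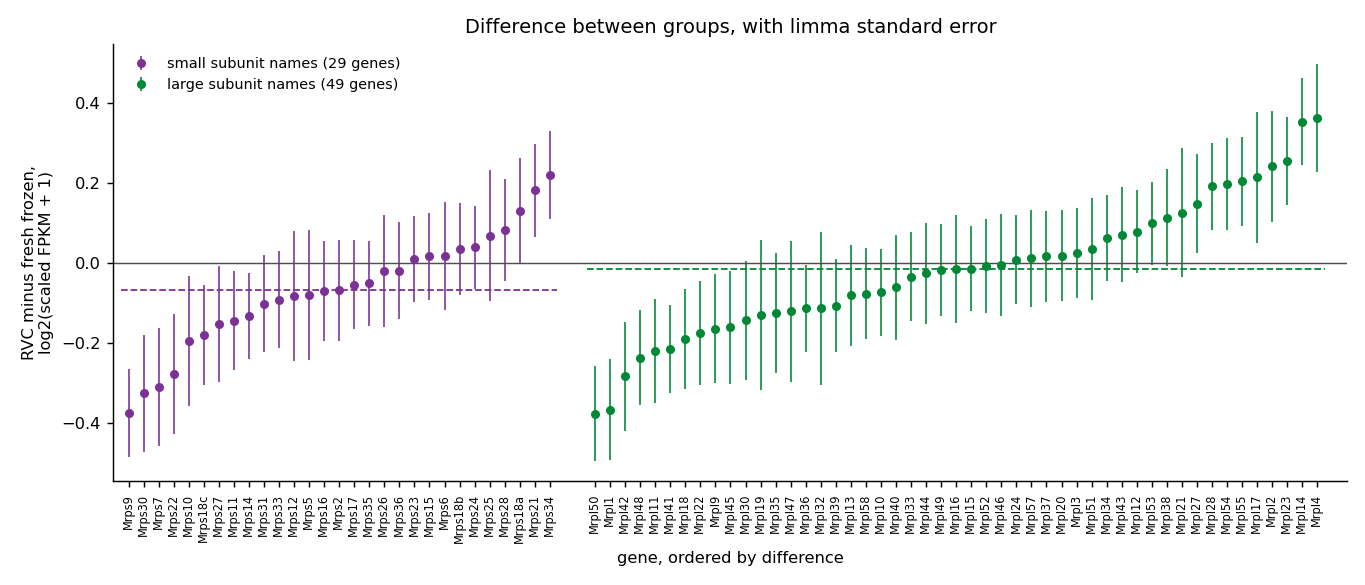
Points give the RVC-minus-fresh-frozen difference of each gene in log2(scaled FPKM + 1), bars the limma standard error (2 libraries against 2), and dashed lines the median of each subunit (-0.07 small, -0.01 large). Differences run from -0.38 (Mrps9, Mrpl50) to 0.36 (Mrpl4), and none passed the adjusted test.

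Most of these genes varied little over the 4 libraries. The median fold between a gene's highest and lowest library was 1.23, against 1.36 over all genes tested, 1.33 in cytosolic ribosomal protein genes and 1.17 in complex I genes, and 74 of 78 stayed under 1.5-fold. The median coefficient of variation was 9.46%. Mrpl37 (mL37) was the steadiest, at 8.61, 8.59, 8.47 and 8.57 FPKM, a coefficient of 0.732%. Mrps15 (uS15m) at 12.3, 12.9, 12.5 and 12.5 FPKM was similar. These 2 genes were chosen after their values were seen.

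Mrpl4, Mrpl32, Mrpl17, Mrps22 and Mrpl42 had the largest range in log2(scaled FPKM + 1), a scale that narrows the range of low genes. By fold between highest and lowest library, the largest were Mrpl19 (1.568), Mrpl4 (1.535), Mrps22 (1.514) and Mrps30 (1.502). Mrpl32 encodes bL32m, which the m-AAA protease has to trim before it enters the large subunit. It had 15.9 and 19.1 FPKM with RVC and 23.5 and 15.4 FPKM fresh frozen, so the 2 fresh-frozen libraries held its highest and lowest value. Mrpl17 (bL17m) had 22.5, 27.1, 24.9 and 18.1 FPKM, and Mrps22 (mS22, mutated in some inherited respiratory chain deficiencies) had 6.49, 8.18, 9.98 and 8.26 FPKM. In Mrpl32 and Mrpl17 the lowest value was in fresh-frozen 2, and in Mrps22 and Mrpl42 it was in RVC 1.

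The median difference between the 2 fresh-frozen libraries was larger than that between the groups. On scaled values, fresh-frozen 1 was the highest library for 40 of 78 genes (51.3%), against 27.4% of all genes tested, and it was above fresh-frozen 2 for 59 of 78 (75.6%), against 50.3%. The median log2 difference between these libraries was 0.12, against 0.00 over all genes, and RVC 1 minus RVC 2 gave -0.06 against -0.01. Among small-subunit names fresh-frozen 1 was highest for 19 of 29 (65.5%) and among large-subunit names for 21 of 49 (42.9%); this gap between subunits was not tested. The same library was highest for 75.9% of 79 cytosolic ribosomal protein genes and 48.6% of complex I genes, and exceeded fresh-frozen 2 for 98.7% and 86.5% of them. The lowest library was fresh-frozen 2 for 30 of the 78 genes and RVC 1 for 28.

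**Figure D5:**
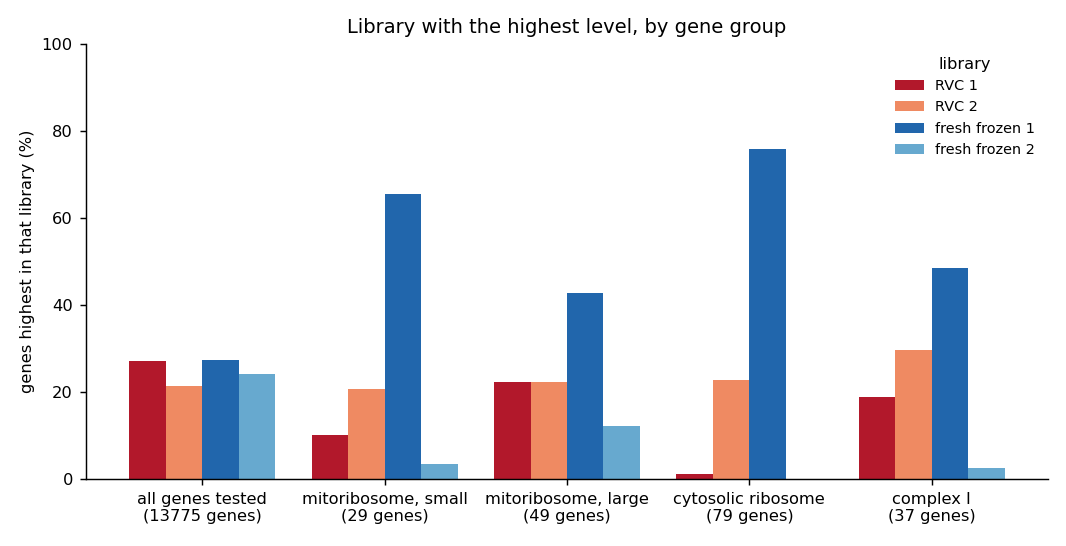
Bars give, for each gene group, the percentage of tested genes whose highest scaled FPKM was in each of the 4 libraries. Fresh-frozen 1 holds 27.4% of all genes, 65.5% of small-subunit and 42.9% of large-subunit mitochondrial ribosomal protein genes, 75.9% of cytosolic ribosomal protein genes and 48.6% of complex I genes.

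Other measures moved with these libraries. Relative depth was 81.8% and 79.8% for RVC 1 and 2 and 72.6% for fresh-frozen 1, of that of fresh-frozen 2. The difference between the fresh-frozen libraries had a Spearman's rho of -0.24 with the length of the longest transcript over 13775 genes and of 0.16 over the 78, whose longest transcripts had a median of 1866.5 nt against 2987 nt. All 10 epithelial markers were higher in fresh-frozen 1 than in fresh-frozen 2, with list sums of 7682 and 5789 FPKM. The sums were 7218 and 7007 FPKM in RVC 1 and 2. Of 7 goblet markers only 1 was higher in fresh-frozen 1 than in fresh-frozen 2, with a median log2 difference of -0.20. Between the groups, 12 of 12 smooth muscle markers were higher with RVC, with sums of 1658 and 2465 against 1081 and 1109 FPKM, and 10 of 10 endothelial markers, with sums of 43.7 and 47.4 against 24.4 and 26.0 FPKM. Also higher with RVC were 6 of 6 tested plasma cell markers (list sums 979 and 874 against 364 and 574 FPKM), 6 of 6 macrophage and dendritic markers (54.2 and 54.9 against 40.7 and 32.3 FPKM) and 10 of 10 epithelial markers, whose sums overlapped. Other lists were divided. With RVC, 4 goblet markers were higher and 3 lower, and 5 fibroblast markers were higher and 2 lower. Of 6 tested enteric neuron and glia markers, 4 were higher and 2 lower. Of 8 tested crypt and proliferation genes 3 were higher and 5 lower (list sums 50.3 and 58.5 against 61.1 and 63.1 FPKM). Mki67, Top2a and Cdk1, which mark dividing cells, were at log2 -0.62, -0.56 and -0.50, and Smoc2 and Mcm6 at -0.24 and -0.01. The 3 higher genes, Mcm5, Pcna and Mcm2, were at 0.20, 0.15 and 0.08, so the list did not move in 1 direction. None of the genes tested in these lists passed the limma threshold, none was at 0 in all libraries, and their part in the values of the ribosomal genes was not tested. In bulk tissue, fewer cells of a type and less RNA per cell cannot be told apart.

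The share of all FPKM that went to the mitochondrial ribosomal protein genes separated the groups. They held 0.221% and 0.223% of the FPKM of tested genes in RVC 1 and 2 and 0.257% and 0.249% in fresh-frozen 1 and 2. The groups did not overlap, and the exact two-sided permutation p was 0.33, the smallest this design allows. The summed level of these genes did not follow the groups, at 1604, 1658, 1751 and 1550 FPKM (exact two-sided permutation p of 1.0). FPKM summed over all genes in the files was higher with RVC, at 954308 and 962928 against 847754 and 849638. A share divides by a total of this kind, so its separation is not a difference in the level of these genes. On scaled values, 53.2% of all genes tested had groups that did not overlap.

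The RNA partners of these proteins showed larger differences. The ribosomal RNAs of the organelle, mt-Rnr1 (small subunit) and mt-Rnr2 (large subunit), were depleted along with cytosolic ribosomal RNA in making the libraries, so their values are what depletion left. mt-Rnr1 was listed at 133 and 249 FPKM with RVC and 388 and 460 FPKM fresh frozen, a log2 difference of -1.20 ± 0.27 (SE; limma adjusted p 0.130). mt-Rnr2 was listed at 146 and 267 against 471 and 845 FPKM, which gave -1.66 ± 0.34 (SE; limma adjusted p 0.129). Groups were apart for both RNAs, and neither passed. Of the mRNAs of mitochondrial DNA, 11 could be tested. All 11 were lower with RVC, where 49.0% of all genes were, with a median log2 difference of -0.26. By limma 0 passed the adjusted threshold, and 3 had an unadjusted p under 0.05, which 18.4% of all genes passed. RVC 1 was the lowest library for all 11, and the median log2 difference of RVC 1 minus RVC 2 was -0.31. For RVC 2 minus fresh-frozen 1 it was -0.15, and for RVC 2 minus fresh-frozen 2 it was -0.03. Much of the group difference thus lay in RVC 1. These 11 took 6.05% and 7.23% of the FPKM of tested genes with RVC and 8.87% and 8.95% fresh frozen. As with the share above, the total was higher with RVC, so this separation is not by itself a difference in their level.

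Of the 5 ribosomal protein genes with names outside the Mrp series, 4 lay within the range of the Mrp genes. Aurkaip1 (mS38) had 39.8, 40.3, 39.3 and 32.9 FPKM, and Chchd1 (mS37) had 27.1, 33.3, 33.9 and 25.9 FPKM. Dap3 (mS29, a GTP-binding protein of the small subunit) had 17.0, 17.9, 23.7 and 18.8 FPKM. Ptcd3 (mS39, a pentatricopeptide repeat protein at the mRNA entry), resembled Mrps9 in its values. It had 8.92 and 8.93 FPKM with RVC and 12.4 and 12.4 FPKM fresh frozen, and the log2 difference was -0.43 ± 0.11 (SE; limma adjusted p 0.146). Gadd45gip1 (mL64) had 1.09, 1.48, 1.47 and 1.20 FPKM, below every gene of the Mrp series.

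Factors that assemble and serve the ribosome had lower median levels than its proteins, at 2.82 ± 0.114 FPKM for assembly, 6.12 ± 0.627 for translation and 3.17 ± 0.650 for tRNA charging (SD, n = 4). None of the lists that follow had a gene past the adjusted limma threshold, and their counts at an unadjusted p under 0.05 stand beside 18.4% of all genes (9.38% higher and 8.99% lower). Regardless of p, 49.0% of all genes were lower. Of 24 tested assembly and rRNA-modifying factors, 6 were higher and 18 lower with RVC (median log2 -0.09), with 1 higher and 4 lower at an unadjusted p under 0.05, a share near that of all genes. Malsu1, the factor that docks on uL14m, had 4.30, 5.49, 7.21 and 4.19 FPKM and did not share the order of Mrpl14. Of 14 translation factors, 2 were higher and 12 lower (median -0.16, 1 lower at an unadjusted p under 0.05), among them Tufm, the elongation factor that delivers aminoacyl-tRNA, at 19.6, 17.2, 22.1 and 20.1 FPKM. Of 16 mitochondrial aminoacyl-tRNA synthetases, 6 were higher and 10 lower (median -0.05, 1 lower at an unadjusted p under 0.05).

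Genes of mitochondrial DNA transcription and maintenance gave 4 higher and 6 lower of 10 tested (median -0.17, 2 lower at an unadjusted p under 0.05, against 18.4% of all genes in both directions). Tfam, the packaging protein and transcription activator of mitochondrial DNA, had 11.3 and 11.8 against 14.5 and 15.5 FPKM, a log2 difference of -0.34 ± 0.11 (SE; limma adjusted p 0.198). Of the 10 nuclear regulators, 5 were higher and 5 lower (median 0.02, none at an unadjusted p under 0.05). Among the factors whose motifs were searched, Gabpa had 11.0, 11.5, 12.6 and 11.1 FPKM, Nrf1 6.73, 6.68, 7.15 and 5.97 FPKM, and Yy1 13.2, 11.9, 11.7 and 13.8 FPKM. These 3 factors overlapped between the groups.

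Transcripts gave the same picture as genes. Of 149 transcripts tested, 0 had a limma adjusted p under 0.05, where 1 of 24188 (0.00413%) did, and 3 were higher and 7 lower at an unadjusted p under 0.05, in all 6.71% where 15.5% of all transcripts passed. The smallest adjusted p was 0.264. In 36 genes 1 transcript held at least 90% of the gene's FPKM, and in 8 none reached 50%.

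The share of FPKM on transcripts of annotated types other than protein-coding was higher than over all protein-coding genes. Of the FPKM of the 78 genes, 83.0 ± 0.596% (SD, n = 4) was on transcripts of the annotated type protein-coding, 5.63 ± 0.287% on retained-intron transcripts, 4.52 ± 0.274% on targets of nonsense-mediated decay (the pathway that destroys mRNAs with early stop codons) and 6.68 ± 0.280% on transcripts of coding genes with no defined reading frame. Over all protein-coding genes tested the shares were 89.8%, 3.80%, 2.41% and 3.68%, each outside the range of the 78 genes over the 4 libraries. In 14 of the 78 genes the most abundant transcript was not of the type protein-coding, among them Mrpl1, whose transcript had no type in the annotation used (GENCODE vM39).

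Retained-intron transcripts held over 25% of the FPKM in 5 of the 48 genes that have 1. In Mrpl57 (mL63) their share was 92.6 ± 1.64% and in Mrps26 (mS26) 90.8 ± 0.603% (SD, n = 4). The protein-coding transcript of Mrpl57 was listed at 1.20, 1.67, 0.86 and 1.28 FPKM beside 14.8, 15.9, 14.9 and 16.5 FPKM for its 519-nt retained-intron transcript. Mrps5 (uS5m) had 77.1 ± 1.09%, Mrps24 57.1 ± 6.13% and Mrpl51 25.6 ± 4.00%. The quantifier shares out fragments that several transcripts could have given, and a ribosome-depleted library also holds unspliced RNA, and the part of either in these shares was not tested.

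A few genes had no settled main transcript. For Mrpl13 (uL13m) the protein-coding transcript of 1223 nt had 5.95, 7.13, 7.30 and 7.33 FPKM and the decay target of 730 nt had 6.23, 7.22, 7.18 and 6.07 FPKM. The decay target was listed higher in the RVC libraries and the coding transcript in the fresh-frozen ones. In RVC 1, RVC 2 and fresh-frozen 1 these gaps were smaller than the median confidence bound of leading transcripts (14.0%, 13.6% and 13.7% of the value). The leader there is not settled. In Mrps24 the retained-intron transcript had 16.7, 18.1, 21.7 and 19.0 FPKM and the protein-coding one 17.6, 15.2, 12.9 and 12.7 FPKM. The coding transcript led only in RVC 1 of Mrps24. Mrps10 (uS10m) switched between transcripts of 1018 nt (3.55, 5.89, 5.98 and 5.19 FPKM) and 1017 nt (4.81, 4.11, 5.52 and 4.23 FPKM). For Mrpl19 the 5000-nt coding transcript had 1.55, 1.72, 2.11 and 1.82 FPKM. A transcript of 419 nt had 1.96, 1.65, 2.78 and 0.48 FPKM, and the leader switched between these. Gaps below the same median bounds were also those of Mrps24 in RVC 1, Mrps10 in fresh-frozen 1 and Mrpl19 in RVC 2. In those libraries the leader of these genes is not settled either.

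Other genes were split among transcripts in the same way in every library. The leading transcript held 34.0% in Mrpl24 (uL24m), 44.4% in Mrpl48 (mL48), 40.6% in Mrpl55 (bL31m), 49.8% in Mrps23 and 35.0% in Mrps5. In Mrpl24 it was a transcript of 432 nt at 11.3, 9.24, 9.96 and 11.7 FPKM. In Mrpl48 it was 1 of 639 nt at 7.32, 9.52, 11.5 and 8.54 FPKM.

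Many of these genes start near the start of another gene on the opposite strand. A protein-coding gene started within 1000 nt on the opposite strand for 32 of the 78 (41.0%), against 10.6% of 21553 protein-coding genes, and within 200 nt for 21. The count takes starts on either side. Some partners start inside the gene, such as Rab6a in Mrpl48 and Twnk in Mrpl43 (-891 and -779 nt, inside counted as negative). A near start is thus not always a shared promoter. Mrpl46 (mL46) and Mrps11 form such a pair with each other. Mrpl46 had 8.71, 9.35, 9.96 and 8.30 FPKM, above Mrps11 in every library. Mrpl36 (bL36m) is paired with Ndufs6 and Mrpl47 (uL29m) with Ndufb5, both complex I genes, whose levels of 103 ± 7.08 and 119 ± 7.25 FPKM were above those of their partners (16.2 ± 0.917 and 8.71 ± 1.54; SD, n = 4).

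The 2 genes of a pair were not at matched levels. Mrpl49 (mL49) had 8.79 ± 0.345 FPKM beside 667 ± 88.9 FPKM for Fau, which encodes a cytosolic ribosomal protein, and Mrps18c had 44.1 ± 4.99 FPKM beside 1.31 ± 0.256 for Helq, a DNA helicase (SD, n = 4). Of the 30 pairs whose partner is not an Mrp gene, the ribosomal gene was the higher one in 20. Pairs named here were chosen after their values were seen. Another protein-coding gene overlapped 24 of the 78 genes, 22 of them on the opposite strand, and whether reads were assigned by strand is not stated, so reads of such neighbours may not be told apart.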

How the data were processed

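Libraries of RNA depleted of ribosomal RNA were read as 150-bp pairs, per the labels' protocols. Reads were aligned with TopHat 2.1.1 to GRCm39 and quantified with Cufflinks 2.2.1, per the submitters' processing notes and the design text. The deposited values are FPKM per transcript with confidence bounds, coverage (a signal, used for relative depth) and length, per the file headers. The confidence bounds lay a median of 12.3% to 14.0% from the value, per library, over the 78 genes, and no read counts or absolute depth are given. Annotation release and strand setting are not given in the sources used here.

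Gene FPKM was the sum over transcripts. Libraries were scaled by median ratio, and log2(scaled FPKM + 1), pseudocount 1, was tested with limma 3.58.1 (R 4.3.3; lmFit, eBayes with trend, two-sided, Benjamini-Hochberg over all genes or transcripts). A fold on this scale understates the change of low genes. Features needed a mean scaled FPKM of at least 1, a length of at least 300 nt (for genes, of the longest transcript) and every status OK. Single values per library were compared by exact permutation (scipy 1.17.1). The test was checked on simulated data, with changes larger than any seen among the mitochondrial ribosomal protein genes. That check does not show how well differences of the size seen here are detected. Transcript types came from GENCODE vM39, which held 342 of the 343 transcripts. Gene coordinates are in GRCm39 and promoters in GRCm38.p6.

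The genes, lists and rules were chosen with earlier results of these data known. Named genes were the 5 highest and 5 lowest of each subunit, the 3 higher and 3 lower with the smallest p and no overlap, the 5 largest ranges, the Mrps18 copies, and genes whose most abundant transcript changed or held under 50%; others were named after their values were seen. Alternatives changed pseudocount, scaling, filters, gene sum, trend, block and library set.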

Additional observations from a re-analysis of the deposited data

How the results depend on the processing

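No mitochondrial ribosomal protein gene or transcript passed the limma threshold under any of the alternatives run, but calls at this size are few anywhere: the number of all genes called moved from 5 to between 0 and 123. At an unadjusted p under 0.05 there were 5 of the 78 genes, 8 under upper-quartile scaling, and between 1 (without RVC 1) and 13 (without fresh-frozen 2) when a library was left out. A group left with 1 library is assumed to vary like the other. The large-minus-small difference was 0.158 by assembled place and 0.0922 with the most abundant transcript, and ran from 0.192 to 0.235 on leaving out a library. Its RVC-minus-fresh-frozen difference was -0.0324 with the most abundant transcript (exact permutation p of 1.0), where 21 of 36 named levels moved by more than their spread, and ran from 0.0456 to 0.116 on leaving out a library. The group difference in the share of summed FPKM kept its sign, from -0.0347 to -0.0271 percentage points on leaving out a library and at -0.0244 with all genes in the file as the denominator. Sample numbers are shared between the groups, and within-group differences correlated at -0.134 over all genes. With the sample number as a replicate block 0 of the 78 genes and 123 of all genes were called, and with the pairing crossed, an alternative added after seeing the data, 0 and 12. Having 2 libraries a group and the unknown depth limit what could be detected.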

Other observations

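Processed copies of these genes were also listed. Mrpl23-ps1 had 3.89, 3.49, 3.86 and 4.03 FPKM in RVC 1, RVC 2, fresh-frozen 1 and fresh-frozen 2, Mrps36-ps2 had 3.45, 2.44, 4.32 and 2.53 FPKM, and Mrps36-ps1 had 2.80, 2.13, 4.26 and 1.84 FPKM. Reads of a gene and a near-identical copy cannot always be told apart, so the values of Mrpl23 and Mrps36 are uncertain to that extent. Mrpl48-ps and Mrpl27-ps were at 0.55 and 0.354 FPKM in mean, and Mrps36-ps3 was listed at 0 in every library.

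Lars2, the mitochondrial leucyl-tRNA synthetase, stood apart from the other synthetases. Its level was 25.3 and 28.9 FPKM with RVC and 46.1 and 81.5 FPKM fresh frozen, a log2 difference of -1.15 ± 0.25 (SE; limma adjusted p 0.129). The difference lay in 1 transcript of 3756 nt, at 19.2, 20.6, 40.9 and 76.4 FPKM, while the transcript of 3894 nt had 5.54, 7.49, 4.86 and 4.71 FPKM. The order of the 4 libraries was that of mt-Rnr2, and also that of mt-Rnr1, mt-Nd6 and mt-Atp8. Lars2 was chosen after its values were seen.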
